A study of Zea mays with 14 samples.

Results

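Embryonic axes of maize (Zea mays) become the root and shoot of the seedling. In them, 88 probe sets of an Affymetrix maize array, of 17555 that are not controls, measured stored mRNAs that fell far during germination. Both samples of axes germinated for 24 h were much lower than quiescent axes. These 88 were chosen by measured values, on the log2 scale on which 1 unit is a 2-fold difference. The mean of the quiescent samples had to be at least 6, the 24 h sample M4 had to lie at least 3 units (8-fold) below it, and the other 24 h sample, RB, had to lie less than 0.7 above M4. For the 88, levels in quiescent and 24 h axes, and every contrast that holds these samples, are therefore descriptions. The comparisons that share no sample with the selection are polysomal RNA with against without insulin, and polysomal against total RNA with insulin.

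There were 11 biological samples on 14 arrays, in 5 groups. Polysomal RNA with insulin has 3 samples, polysomal RNA without insulin 3, total RNA with insulin 1, total RNA of 24 h axes 2 (M4 and RB) and total RNA of quiescent axes 2, taken at 0 h. In the insulin groups and their control, axes were dissected from seeds imbibed for 22 h and kept for 2 h in Murashige and Skoog medium, with bovine insulin at 200 µU/mL or with none (0 µU/mL). Whether the 24 h axes also passed through the medium is not stated in the labels, which name no maize variety. Whole axes were pooled by weight (1 g for total RNA and 2 g for polysomal RNA, which is the RNA recovered with ribosomes after a sucrose cushion), so fewer cells of a type and less RNA per cell cannot be told apart. Each value is also relative to the other RNA on its array.

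A dry seed carries mRNAs that were made while it matured, among them those for storage proteins and for protection against drying. Many of these stored mRNAs are broken down after water uptake while the axis makes mRNAs for growth. An mRNA on polysomes is carrying ribosomes, so polysomal RNA shows which of the remaining mRNAs are associated with translation.

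In total, 340 probe sets had a quiescent mean of at least 6 and lay at least 3 units lower in M4, and the 88 are 25.9% of them. The other 252 had RB at least 0.7 above M4, with a median RB minus M4 of 1.70, and so lay nearer to quiescent axes in RB. These values follow in part from the selection, which chose probe sets low in M4. Over all probe sets the median of RB minus M4 was -0.001. Among the 88 the median of RB minus M4 was 0.31, the lowest was -0.82, and RB lay below M4 in 17. Their quiescent means ran from 6.33 to 13.81 with a median of 10.0, and 44 were at 10 or more. The fall to M4 had a median of 3.37 and a maximum of 4.92, and reached 4 in 10 probe sets. Just inside the limit on the fall lay values of 3.01, 3.02 and 3.02, and just outside it 3.00, 2.99 and 2.99. For RB minus M4 the nearest values inside were 0.70, 0.70 and 0.69 (the last of AGP2), and those outside 0.73, 0.73 and 0.75.

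**Figure D1:**
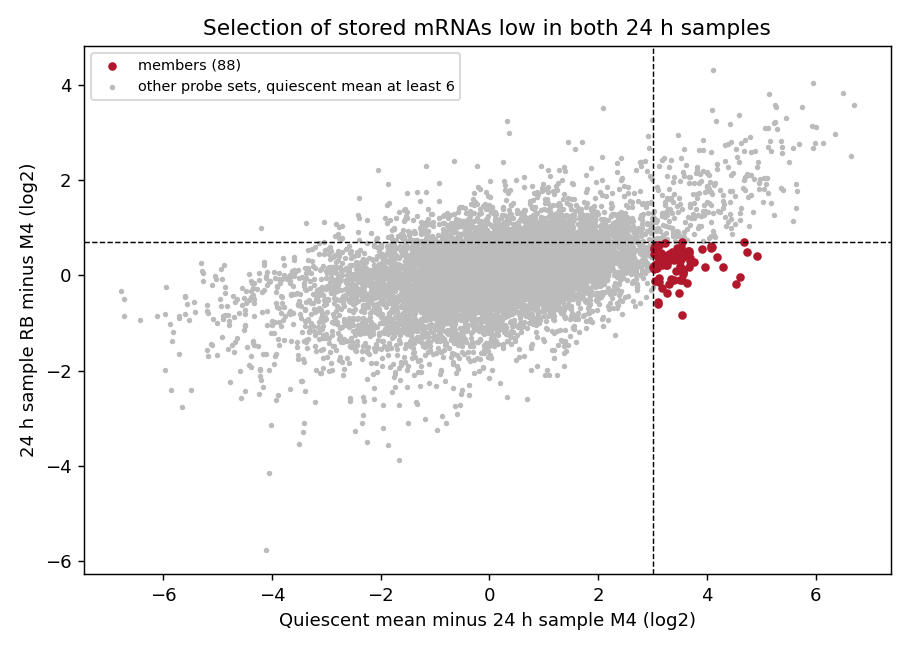
Each point is a probe set with a quiescent mean of at least 6. The x axis is the quiescent mean minus 24 h sample M4 and the y axis is 24 h sample RB minus M4, both in log2 units, and dashed lines mark the limits of 3 and 0.7. The 88 selected probe sets (red) fill the lower right corner, while 252 probe sets with the same fall lie above the limit on RB.

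The platform annotation pairs 8 of the 88 with a single gene and leaves 80 unnamed here. The named ones are glb2 and glb1 (globulin storage proteins of the embryo), sus2 (a sucrose synthase, which splits sucrose for use in metabolism), TIP3-2 (a tonoplast aquaporin of the seed type, a water channel of the membrane of protein storage vacuoles), asn1 (asparagine synthetase, which makes the nitrogen carrier asparagine), Silky1 (a MADS-box transcription factor of floral organ identity), AGP2 and trm1. By the cluster in their identifiers, the 88 probe sets represent 81 clusters, and 5 clusters hold 12 of them. Those 12 are not independent measurements of different mRNAs.

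The selected mRNAs had fallen far, but the signal of most stayed above background. A sample's background was the level under which 95% of its 23 negative control probe sets lay. In 8 of the 88, both 24 h samples were below background, against 15.3% of all probe sets. All 88 were above background in both quiescent samples. Only 6 were below background in all 9 germinated samples, 62 were above it in every one of them, and 20 were below it in some. For the 8 at background after 24 h, the fold is a lower bound computed against the background level, and for trm1 the 24 h axes lay at least 6.23-fold below quiescent axes.

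All 88 were called lower in 24 h than in quiescent total RNA by limma at an adjusted p under 0.05, as were 25.8% of all probe sets tested (4538 of 17582). This is the contrast that chose them, and nothing is read from the count. The spiked poly-A control RNAs moved with the same contrast: their median was 7.47 and 7.56 in M4 and RB, against 9.71 and 9.47 in the quiescent samples. The part of that difference in the falls was not tested.

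Both globulins were among the 5 largest falls. The probe set for glb2 had the largest fall of all 88, with log2 signals of 6.85, 8.54 and 7.18 in polysomal RNA with insulin, 8.82, 7.40 and 7.49 in polysomal RNA without insulin, 8.21 in total RNA with insulin, 7.75 and 8.16 in M4 and RB, and 12.64 and 12.68 in quiescent axes. Every germinated sample lay well under both quiescent samples, and the mean of 24 h axes was 26.2-fold below that of quiescent axes. The 24 h values sat inside the range of the polysomal ones.

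The probe set for glb1, which ranked 5 by its fall, had the highest quiescent signal of the 88. Its values were 5.77, 9.09 and 6.28 in polysomal RNA with insulin, 8.93, 6.02 and 6.55 in polysomal RNA without insulin, 9.80 in total RNA with insulin, 9.27 and 9.10 in M4 and RB, and 13.82 and 13.80 in quiescent axes. All 6 polysomal samples were under the 3 germinated total RNA samples, though the highest of them, 9.09, was close to RB, and the spread inside each polysomal group was wide. Of the other globulin genes with a name here, glb3 was low in quiescent axes already (5.64 and 5.55, against 5.12 and 5.18 in M4 and RB) and was not called by limma (adjusted p = 0.147).

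Among the metabolic genes, sus2 had 7.52 and 8.04 in M4 and RB against 10.87 and 11.52 in quiescent axes, 10.7-fold lower. Its 6 polysomal values, between 7.66 and 8.35, enclosed the value of total RNA with insulin (8.01). For asn1 the values were 7.22, 7.51 and 6.90 in polysomal RNA with insulin, 7.61, 7.06 and 6.85 in polysomal RNA without insulin, 7.89 in total RNA with insulin, 8.07 and 8.38 in M4 and RB, and 11.43 and 11.21 in quiescent axes. All polysomal values of asn1 lay under all germinated total RNA values, and the 24 h mean was 8.55-fold below the quiescent mean.

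The aquaporin TIP3-2 had 6.80, 7.47 and 6.76 in polysomal RNA with insulin, 7.67, 7.05 and 6.81 in polysomal RNA without insulin, 7.46 in total RNA with insulin, 7.52 and 7.42 in M4 and RB, and 11.34 and 10.48 in quiescent axes. The germinated groups overlapped one another and stayed 10.9-fold (24 h mean) under the quiescent mean. Its relative TIP3-1 fell further in M4 but differed between the 24 h samples, at 7.84 in M4 and 9.25 in RB against a quiescent mean of 13.47, and so was not selected.

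Silky1 had 5.61, 4.91 and 5.34 in polysomal RNA with insulin, 4.70, 5.42 and 4.81 in polysomal RNA without insulin, 5.66 in total RNA with insulin, 5.17 and 5.31 in M4 and RB, and 8.26 and 8.22 in quiescent axes. The germinated values overlapped between groups, and the 24 h mean was 8.0-fold below the quiescent mean. AGP2 kept a higher signal than the other named genes after germination, with 9.31, 9.32 and 9.43 in polysomal RNA with insulin, 9.17, 9.49 and 9.31 in polysomal RNA without insulin, 9.86 in total RNA with insulin, 9.63 and 10.32 in M4 and RB, and 12.75 and 12.99 in quiescent axes. Signals of different probe sets are not amounts of mRNA, so this order is one of array signal only. All polysomal values of AGP2 were under all germinated total RNA values. The probe set for trm1 was below background in all 9 germinated samples (3.80 to 4.22) and stood at 7.05 and 7.12 in quiescent axes.

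**Figure D2:**
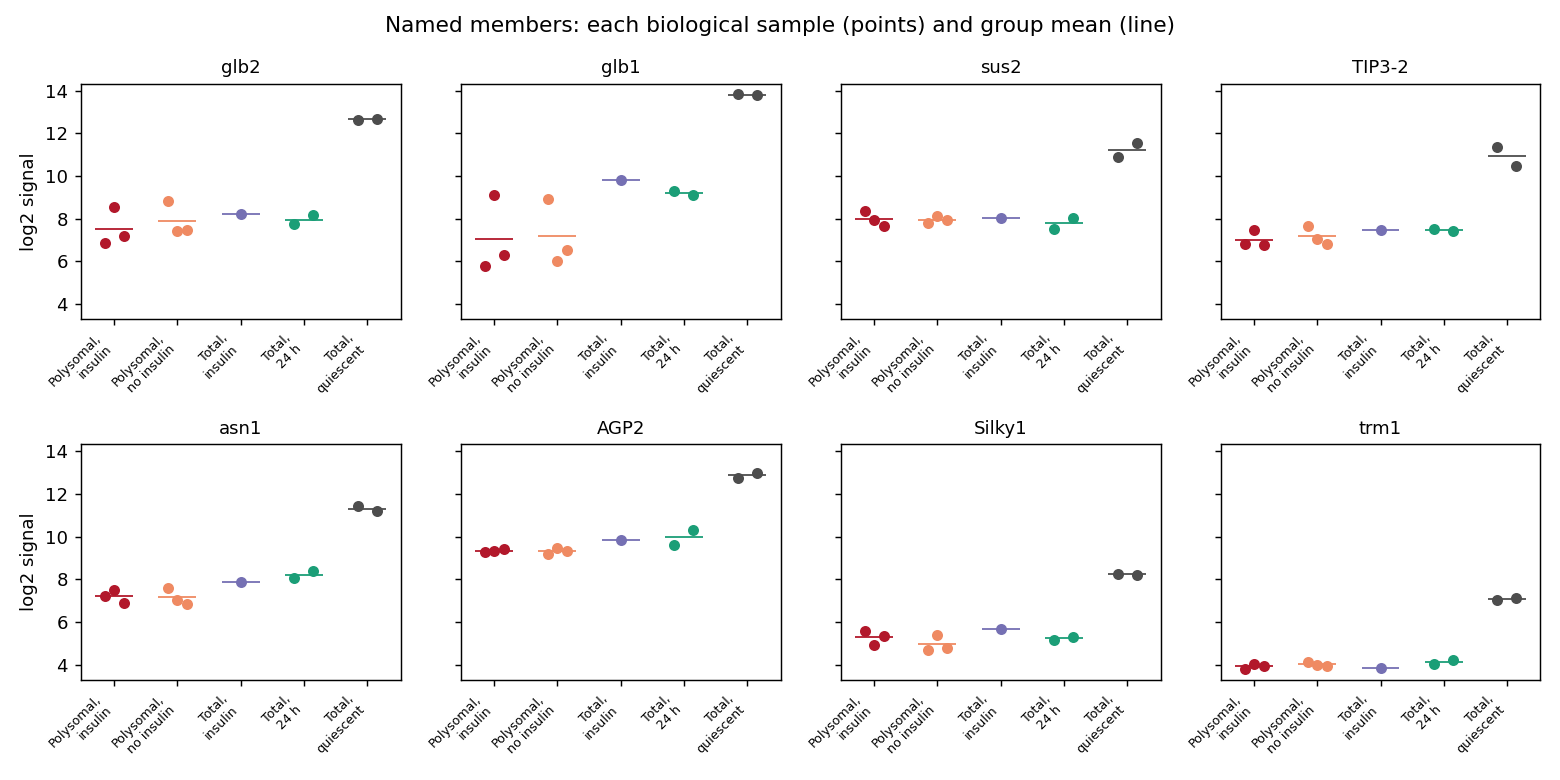
Log2 signal (y axis) of the 8 named genes, 1 panel each, with a point for every biological sample and a line for the group mean; groups run from polysomal RNA with insulin to quiescent total RNA. In each panel both quiescent samples lie above every germinated sample, and in glb1 the polysomal samples range from 5.77 to 9.09 with insulin and from 6.02 to 8.93 without it.

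Germinated samples that the selection did not use were about as low as the 24 h samples. The median level over the 88 was 6.33 in polysomal RNA with insulin, 6.36 in polysomal RNA without insulin, 6.49 in total RNA with insulin and 6.44 in 24 h total RNA, against 10.0 in quiescent axes. The group mean lay at least 3 units below the quiescent mean in 72 of the 88 in polysomal RNA with insulin, where 2.44% of all probe sets did, in 76 in polysomal RNA without insulin (2.74% of all) and in 69 in total RNA with insulin (2.01% of all). With values under background set to the background level, these counts were 66, 68 and 61. The quiescent samples are shared by the selection and these counts, which are descriptions.

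In 85 of the 88, all 7 germinated samples not used in the selection lay at least 2 units below the quiescent mean (4.19% of all probe sets), and in 48 all of them lay at least 3 units below it (1.3% of all). The median distance to the quiescent mean was 3.51 in polysomal RNA with insulin, 3.67 in polysomal RNA without insulin and 3.32 in total RNA with insulin. With values under background set to that level it was 3.42, 3.45 and 3.23.

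A single probe set had polysomal samples that overlapped the quiescent ones. That probe set, which ranked 62 by its fall and has no gene name here, had 9.47, 6.53 and 8.27 in polysomal RNA with insulin, 6.50, 9.57 and 8.01 in polysomal RNA without insulin, 6.11 in total RNA with insulin, 5.63 and 5.86 in M4 and RB, and 8.17 and 9.37 in quiescent axes. Sample 1 with insulin and sample 2 without insulin were higher than both quiescent samples, sample 3 with insulin lay between them, and the other 3 polysomal samples were under both. For each of the other 87, every polysomal sample was lower than both quiescent samples, as in 45.7% of all probe sets with insulin and 44.4% without it.

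**Figure D3:**
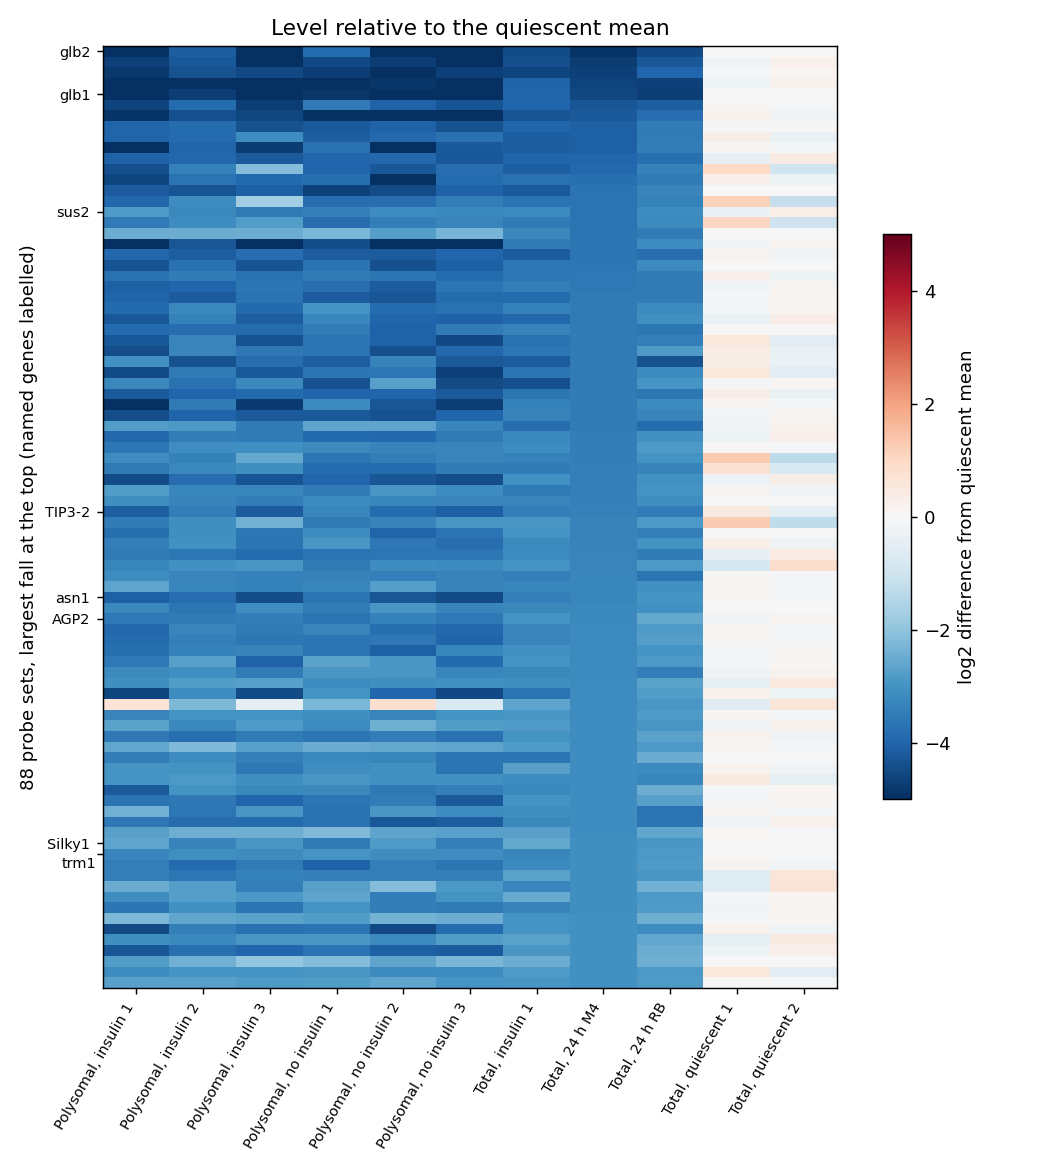
Each row is 1 of the 88 probe sets, ordered by the fall to M4 with the largest at the top, and each column a biological sample; colour gives the log2 difference from the quiescent mean (blue lower, red higher, scale -5 to 5). All 9 germinated columns are blue in nearly every row, and the exception at rank 62 is red or pale in 4 of the 6 polysomal columns.

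No change with insulin was detected for any of these mRNAs on polysomes. This comparison shares no sample with the selection. By limma, in a fit that pairs no samples, 0 of the 88 were called between polysomal RNA with and without insulin, as were 0 of the 17582 probe sets tested (0% called). At an unadjusted p under 0.05 there were 0 of the 88 and 57 of all (0.324%). The differences, insulin minus no insulin, ran from -0.42 to 0.76 with a median of 0.04, and the median over all probe sets was -0.01. The 95% interval of the difference stayed inside 2-fold up or down for 51 of the 62 that were above background in every sample of those groups (82.3%, against 90.8% of all such probe sets), and for the others the interval reached beyond a 2-fold change.

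The intervals of the named genes show how far this reaches. For AGP2 the difference was 0.03 (95% interval -0.39 to 0.45), and for sus2 it was 0.04 (-0.50 to 0.58). For glb2 it was -0.38 (-1.45 to 0.69) and for glb1 -0.12 (-2.17 to 1.93), since their polysomal samples spread widely in each group. Silky1 was 0.31 higher with insulin (-0.20 to 0.82). Each of these intervals included 0.

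The polysomal samples differed from one another along lines that cross the insulin groups, over the 88 and over all probe sets. In 10 of the 88 (11.4%), sample 1 without insulin and sample 2 with insulin both lay at least 0.5 above the other samples of their own group, as did 246 of all 17555 probe sets (1.40%). Of these 10, 3 have a gene name, glb2, glb1 and TIP3-2, whose values are given above. The opposite pattern, both samples at least 0.5 lower, was met by 2 of the 88 (2.27%) and 367 of all (2.09%).

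Of the others, the one ranked 34 by its fall, had 8.60, 10.05 and 8.81 in polysomal RNA with insulin and 10.42, 9.31 and 8.86 in polysomal RNA without insulin, against 13.62 and 13.54 in quiescent axes. Over the 88, the deviations from the group means correlated at r = 0.93 between sample 2 with insulin and sample 1 without insulin, at 0.74 between sample 1 with and sample 2 without, and at 0.67 between both samples 3. Over all probe sets these were 0.77, 0.70 and 0.60 (across probe sets, which are not independent). Same-numbered samples 1 and same-numbered samples 2 correlated at -0.66 and -0.66 over the 88. Deviations of 3 samples from their own mean are tied to one another, so the negative values are not separate evidence from the positive ones. The labels do not say what the samples share, and whether the numbers of one group are exchanged was not tested.

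Measures of RNA and labelling differed along the same lines. The 3′ minus 5′ signal of EF1a, a measure of RNA integrity and labelling reach, was 2.25, 1.45 and 0.99 with insulin and 1.32, 2.55 and 0.88 without insulin. The median of the poly-A spikes was 9.57, 10.8 and 7.37 with insulin and 10.8, 9.54 and 8.45 without insulin. In both measures sample 2 with insulin was close to sample 1 without insulin, and sample 1 with insulin to sample 2 without it. Outside the 88, the mRNA of ole1, a lipid body oleosin, was also highest in sample 2 of those with insulin (12.17) and in sample 1 of those without (12.24). The hybridisation controls of sample 2 with insulin stood apart, with a median of 3.97 against 8.98 to 10.7 in the other samples. Their part in the spread of the globulin signals was not tested.

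Polysomal RNA was then set against total RNA of axes treated alike with insulin, again in samples the selection did not use. Total RNA with insulin is a single biological sample, assumed to vary like the other groups. Its technical arrays differed by a median size of 0.21 over the 88, with 1.02 as the largest difference. The median of first minus second array was 0.16. The 3′ minus 5′ signal of EF1a was 0.38 in it, against 2.25, 1.45 and 0.99 in the polysomal samples with insulin. The median of its poly-A spikes was 7.17, against 9.57, 10.8 and 7.37. The part of these measures in the differences was not tested. By limma 0 of the 88 were called, and 1 of all probe sets (0.00569%). At an unadjusted p under 0.05 there were 7 lower (5.9% of all) and 1 higher on polysomes (3.71% of all). The median of polysomal minus total was -0.18 over the 88 and -0.07 over all probe sets, and 59 of the 88 (67.0%) were lower on polysomes, against 58.1% of all.

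The largest difference was that of glb1, -2.76 ± 1.28 (SE; limma adjusted p = 0.538; 95% interval -5.65 to 0.14), lower in each of the 3 polysomal samples than in the total RNA sample. For glb2 it was -0.69 ± 0.67 (adjusted p = 0.743) and the polysomal samples lay on both sides of the total RNA value. For asn1 it was -0.67 ± 0.33 (adjusted p = 0.546) and for AGP2 -0.51 ± 0.26 (adjusted p = 0.565), each lower in 3 of 3 polysomal samples. None of these passed the limma test.

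The smallest adjusted p of the 88, 0.338, was that of the unnamed probe set ranked 4 by its fall. It had 4.96, 4.94 and 4.64 in polysomal RNA with insulin and 5.99 in total RNA with insulin, against 9.82 and 10.25 in quiescent axes. The difference was -1.15 ± 0.24 (SE, limma) with a 95% interval of -1.70 to -0.59. The interval lay within a 2-fold change for 19 of the 62 above background in these groups (30.6%, against 55.1% of all), so the comparison with a single total RNA sample left most of them unresolved at that size.

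Without insulin, the polysomal samples were set against M4 and RB, which the selection used, so the values are a description. The 3′ minus 5′ signal of EF1a was 0.63 and 0.62 in M4 and RB, against 1.32, 2.55 and 0.88 in these polysomal samples. The poly-A spikes had medians of 7.47 and 7.56, against 10.8, 9.54 and 8.45. The part of these measures in the differences was not tested. The median of polysomal minus 24 h total RNA was -0.26 over the 88 and -0.00 over all probe sets, and 70 of the 88 (79.5%) were lower on polysomes, against 50.4% of all. By limma 1 of the 88 passed as higher (0.307% of all) and 0 as lower (0.774% of all), counts that turn on single samples (13 in all without M4, and 0 without RB, polysomal sample 1 or polysomal sample 3) and from which nothing is read. For glb1 the difference was -2.02, for asn1 -1.05 and for AGP2 -0.65, while glb2, at -0.05, and sus2, at 0.17, had almost the same mean in both.

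The 1 probe set that passed has no gene name here, ranked 18 by its fall and was among the 5 with the highest quiescent signal. It had 10.22, 10.21 and 10.20 in polysomal RNA with insulin, 10.42, 9.95 and 10.36 in polysomal RNA without insulin, 9.47 in total RNA with insulin, 9.03 and 9.21 in M4 and RB, and 12.70 and 12.70 in quiescent axes. All 6 polysomal samples were above all 3 germinated total RNA samples and far below both quiescent ones. Polysomal minus total RNA was 1.12 without insulin and 0.74 with insulin, the second in samples the selection did not use and not called (limma adjusted p = 0.389).

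Polysomal-to-total differences with and without insulin, which share no sample, followed each other across the 88 at r = 0.75 (n = 88 probe sets, some of them of the same cluster), against 0.62 over all 17582. They were below 0 in both for 55 of the 88 (62.5%) and above 0 in both for 14 (15.9%), against 39.3% and 30.8% of all probe sets. For the difference between the 2 contrasts limma called 0 of the 88 and 0 of all (0%), and at an unadjusted p under 0.05 there were 2 of the 88 and 303 of all (1.72%). The polysomal samples resemble one another across the insulin groups, as described above, and the points share that resemblance.

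**Figure D4:**
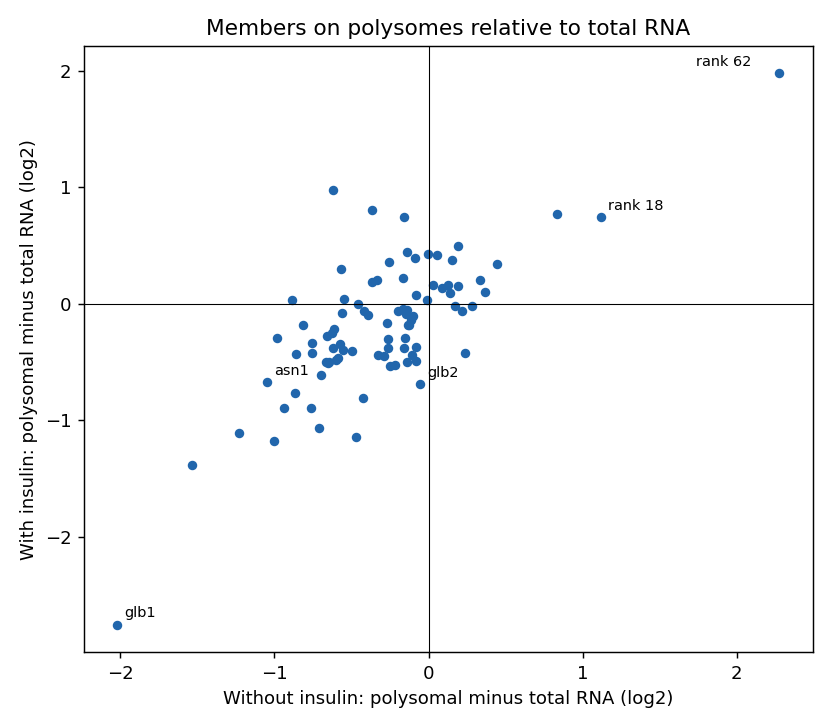
Each point is 1 of the 88 probe sets, with polysomal minus total RNA without insulin on the x axis and with insulin on the y axis (log2 units, group means). Most points lie in the lower left, glb1 lies farthest down at -2.02 and -2.76, and the unnamed probe set ranked 62 lies farthest up at 2.28 and 1.98.

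The 88 and the 252 that had fallen as far in M4 but stood higher in RB had unlike values in the samples the selection did not use. Polysomal minus total RNA with insulin had a median of -0.18 in the 88 and 0.33 in the 252. Insulin minus no insulin on polysomes had medians of 0.04 and 0.29. In the contrasts that hold RB, by which both sets were divided, polysomal minus total RNA without insulin had medians of -0.26 in the 88 and -0.77 in the 252, the opposite order. Total RNA with insulin minus 24 h total RNA had medians of -0.07 and -0.82. For that last contrast limma called 0 of the 88 and 0 of all (0%), and at an unadjusted p under 0.05 there were 3 of the 88 and 427 of all (2.43%). The difference between the sets was not tested.

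The quiescent samples did not agree on every stored mRNA. The median size of the difference between them was 0.28 over the 88 and 0.22 over all probe sets, but it exceeded 1 in 13 of the 88. In 6, all unnamed, quiescent sample 1 was more than 1.5 above sample 2, as in 39 probe sets of the array in all. In 1 of the 88, and 37 in all, sample 2 was more than 1.5 above sample 1. The technical arrays of quiescent sample 1 differed by a median of 0.06 over the 88, with 0.73 as the largest difference.

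In all 6 of these, sample 3 with insulin was the highest of the 6 polysomal samples, which held for 17 of the 88 (19.3%) and 16.8% of all. The probe set ranked 12 had 5.47, 6.48 and 7.67 in polysomal RNA with insulin, 5.88, 5.62 and 6.06 in polysomal RNA without insulin, 5.74 in total RNA with insulin, 5.94 and 6.50 in M4 and RB, and 10.85 and 8.86 in quiescent axes. The one ranked 15 had 4.02, 4.85 and 6.20 in polysomal RNA with insulin, 4.13, 4.16 and 4.50 in polysomal RNA without insulin, 4.27 in total RNA with insulin, 4.27 and 4.57 in M4 and RB, and 9.09 and 6.82 in quiescent axes. In both, sample 3 with insulin stood above the rest of the germinated samples and below both quiescent samples. The other 4 were ranked 17, 39, 40 and 45, those ranked 17 and 39 being of the same cluster. At ranks 39 and 40 every polysomal sample except sample 3 with insulin was below background. That sample stood at 4.30 and 4.60, with its background at 4.29. Of the 33 probe sets outside the 88 with the same quiescent difference, sample 3 with insulin was the highest polysomal sample in 16 (48.5%).

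**Figure D5:**
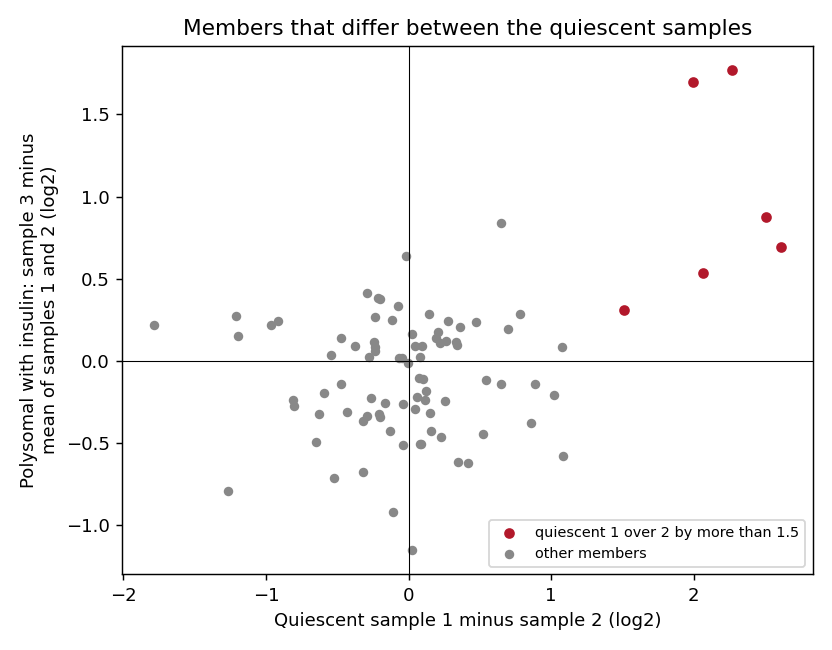
Each point is 1 of the 88 probe sets, with quiescent sample 1 minus sample 2 on the x axis and, on the y axis, polysomal sample 3 with insulin minus the mean of samples 1 and 2 with insulin (log2 units). The 6 probe sets in red, with an x value above 1.5, all lie above 0 on the y axis.

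Other groups of seed genes were read beside these, from lists of the genes that have a name here, and each is counted by probe sets called by limma between 24 h and quiescent axes. Of 4 storage globulin probe sets 3 were lower, 0 were higher and 2 are among the 88; leg1, the other one lower, was below background in both groups. Of 5 for seed maturation and desiccation, 2 were lower and 3 higher, and none is among the 88. The dehydrin rab17/dhn1, a protein of drying and abscisic acid response, was 2.63 lower after 24 h (11.46 in 24 h axes against 14.09 in quiescent axes) with RB 2.07 above M4, while the 3 probe sets for dhn2, another dehydrin, were 3.18 to 3.57 higher. Of 10 antioxidant probe sets 6 were lower and 2 higher; the peroxiredoxin per-1, for example, had 9.46 in M4 and 11.42 in RB against a quiescent mean of 13.52.

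Of 8 probe sets each for the abscisic acid pathway and for protease and lipid mobilisation, 4 were lower and 0 higher in each list, and of 11 for heat shock and chaperones none passed in either direction. In the heat shock list RB minus M4 ran from -3.24 (hsp101) to 0.12 (hsp70-4). The 24 h samples thus disagreed in part of it, and a missing call there does not show equal levels. Glutathione transferases were planned as part of the antioxidant list but are counted apart here, with 3 of 35 lower and 19 higher. The balance of the antioxidant probe sets given above therefore leaves them out. The aleurone list had 1 lower and 1 higher of 3, and the lower one, a probe set for the pigment regulator c1, had 3.31 in M4 and 5.19 in RB against a quiescent mean of 7.31. The other probe set for c1 was not called, with 6.75 and 6.21 in M4 and RB against 6.83 and 6.67 in quiescent axes. Across all probe sets 25.8% were lower and 21.3% higher. Apart from the globulins, none of these lists holds any of the 88. Only the 8 with a gene name could appear in a list, so the absence says nothing about the 80 unnamed ones.

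Markers of other cells gave a partial check of the tissue. Of 24 endosperm probe sets, 14, most of them zein storage proteins, were below background in both 24 h samples and in both quiescent samples. Of the 24, 3 were called higher after 24 h (2 for sh1 and 1 for gz27) and 5 lower, among them sh2, bt2 and wx1 (differences of -1.56, -1.5 and -1.02). The log2 of the summed signals of the list was 13.14 and 12.29 in M4 and RB against 10.89 and 11.06 in quiescent axes. This sum was led by sh1, a sucrose synthase also known outside the endosperm, with 12.65 and 11.72 in M4 and RB against 9.45 and 9.82. Of 12 photosynthetic probe sets 1 was lower and 0 higher. Of 8 for dividing cells 3 were higher and 2 lower: pcna1, pcna2 (both clamps of DNA replication) and his2b5 (a histone) were 3.76, 4.88 and 4.45 higher after 24 h, and both probe sets of cenH3, the histone of centromeres, had differences of -1.03 and -1.16. The 3 cyclin probe sets did not pass. The part of these markers in the falls of the 88 was not tested.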

How the data were processed

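RNA of maize embryonic axes was measured on 14 Affymetrix maize arrays. The authors deposited a table of 17734 probe sets, used here as log2 values because of their range; background correction and normalization are not given in sources used here, and the submitters' processing notes name only limma, with no version. Because values are relative within an array, a shift shared by most mRNAs cannot be seen.

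Technical arrays were averaged, and the 5 groups were fitted together with limma 3.58.1 in R 4.3.3 (lmFit, eBayes; 6 residual and 3.21 prior degrees of freedom). Adjusted p-values are Benjamini-Hochberg over 17582 probe sets (17555 and 27 controls named for a maize gene), called under 0.05. The fit was tested on simulated data. There it recovered no 2-fold change between polysomal and total RNA with insulin, and only part of those between polysomal RNA with and without insulin. Of 4-fold changes it recovered most in both comparisons. The members, gene lists and comparisons were chosen with earlier results of these data known. The rule names members with a gene, the 5 of highest quiescent signal, those called and those nearest each limit; others are given by rank.

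Gene names come from a platform annotation that gives 1 gene to 1452 probe sets, several to 1 and none to 16102; 1377 of the 1452 matched a RefSeq gene table (Zm-B73-REFERENCE-NAM-5.0). Labels do not say whether samples came from separate seed lots, so p-values cover the spread of these samples alone, whose number limits the precision. Of same-numbered polysomal samples, samples 3 deviated together and samples 1 and 2 in opposite ways, so numbers were not used to pair them. Alternatives covered normalization, technical arrays, samples left out and the limits of the selection.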

Additional observations from a re-analysis of the deposited data

How the results depend on the processing

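The number of probe sets selected, 88, became 147 with each array centred on its median, 217 with a fall of at least 2.5 and 33 with a fall of at least 3.5. The first and second contain all 88 and the third only members. In the other 6 of 9 settings the number stayed within 1.5 times of 88. With first technical arrays only it was 89, of which 80 were among the 88. With second technical arrays only it was 85, of which 77 were. Centring shifts all probe sets of an array alike. The median over all probe sets was 7.29 and 7.38 in the quiescent samples, against 7.59 in M4 and 7.63 in RB. Centring therefore widened every fall to M4, much as a lower limit on the fall would. Members called between polysomal RNA with and without insulin were 0 in all 15 settings, with the replicate number as a block among them (0 called); same-numbered samples 1, and samples 2, correlated negatively in their deviations, so that block pairs samples by number only. Between polysomal and total RNA with insulin the count was 0 in all 11 settings, and between total RNA with insulin and 24 h total RNA 0 in all 10. Between polysomal and 24 h total RNA without insulin the count of 1 became 2 with second technical arrays only (a setting chosen after seeing the data), 6 with every array kept and technical arrays tied by a random block, and 0 when the fit held the compared groups alone; leaving out a sample gave 0 to 13, with 13 when M4 was left out and 0 when RB, polysomal sample 1 or polysomal sample 3 without insulin was. Members called lower in 24 h axes were 69 of the 69 still tested without the dimmest 25% of probe sets, and 87 or 88 of 88 in the other settings. Members at least 3 units below quiescent axes numbered 68 to 82 in polysomal RNA with insulin, 71 to 81 without insulin and 63 to 82 in total RNA with insulin, in settings chosen after seeing the data. Signals near background limit the folds of members that were below it.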
